A study of Homo sapiens with 12 samples.

Results

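The genes described here govern how pyruvate enters the mitochondrion and what happens to it there. They are the carrier subunits MPC1 and MPC2, the pyruvate dehydrogenase subunit PDHA1, the kinases PDK1 to PDK4, the phosphatases PDP1 and PDP2, and pyruvate carboxylase (PC). They are named by gene symbol, with no threshold on a measured value, as 10 of the 45478 rows of the gene count table. Each of the 10 passed the filter on low counts and was among the 19929 genes tested.

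Pyruvate made by glycolysis crosses the inner mitochondrial membrane through a heterodimer of MPC1 and MPC2. In the matrix it is either oxidized to acetyl-CoA by the pyruvate dehydrogenase complex, or carboxylated to oxaloacetate by PC. The kinases inactivate the complex by phosphorylating its PDHA1 subunit and the phosphatases reverse this, and in clear cell renal cell carcinoma (ccRCC) loss of VHL stabilizes hypoxia-inducible factors, for which PDK1 is a known target.

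The 12 mRNA libraries came from ccRCC cells in culture, with 3 replicates in each of 4 groups. 786-O and A498 are the parental cell lines, both deficient in VHL and not selected with sunitinib, a multikinase inhibitor of angiogenic receptors, and a line's name alone stands for its parental cells. Resistant 786-O cells were derived at 4 μM sunitinib and resistant A498 cells at 2 μM, over 4 months or more than 20 passages, with drug in the medium throughout. The cells of the 4 groups grew in DMEM with 25 mM glucose and 10% serum. Each sample title carries the tag veh, which is not explained in the labels and may stand for a vehicle. The labels name no further treatment. Resistance was selected in a single named culture for each cell line, and the sources used here do not say whether replicate libraries came from separate cultures, so that the p-values measure the spread between these libraries, which may be technical. The 4 groups have 4 different batch labels, and batch and group therefore cannot be told apart. In bulk RNA, a lower level in each cell and fewer cells that express a gene cannot be told apart either.

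Depth was 20042519 to 47972092 counts per library (median 37898338). Levels are given as CPM, the count of a gene relative to the TMM-scaled library size, and a gene was called changed when edgeR's quasi-likelihood test gave a Benjamini-Hochberg adjusted p under 0.05 over the genes tested. PAX8, a renal lineage factor, was abundant in each group, with means of 200 to 312 CPM. CA9, an antigen typical of ccRCC, had a mean of at most 1.29 CPM, and none of 8 T cell markers exceeded 1 CPM in any group. The resistant A498 libraries did not resemble their labelled parent. Their median correlation of log2 CPM across genes was 0.87 with A498 libraries, 0.95 with 786-O and 0.98 with resistant 786-O, where genes are not independent replicates. The 62 genes abundant in A498 and at the floor in 786-O stood at a median of 0.362% of their A498 level in resistant A498, whereas the 33 genes abundant in 786-O and at the floor in A498 stood at 94.6% of their 786-O level. Changes in resistant A498 are therefore given against A498 and against 786-O, side by side. Both comparisons with 786-O as the reference, those of resistant 786-O and of resistant A498, share the 786-O libraries. Replicate 2 of resistant 786-O also stood apart, with an SD of log2 deviations of 0.295 against 0.17 and 0.18 for its companions, over 10085 genes.

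The kinase genes differ in the DNA before their starts. Upstream sequence of the 4 PDK genes is shown because these genes moved in different directions and PDK1 is known for its hypoxia response element. Capitals mark ACGTG or GCGTG, cores of that element, read on either strand (CACGT is ACGTG on the other strand). The PDK2, PDK3 and PDK4 stretches lie outside annotated exons. The PDK1 stretch holds the last 28 bases before the RefSeq start and is part of the first exon of longer PDK1 transcripts. Sequences are from RefSeq (GRCh38.p14), written in the direction of transcription.
PDK1, chr2:172556062-172556089, plus strand: ctgctgcccgcCACGTccctCACGTacc
PDK2, chr17:50095101-50095284, plus strand: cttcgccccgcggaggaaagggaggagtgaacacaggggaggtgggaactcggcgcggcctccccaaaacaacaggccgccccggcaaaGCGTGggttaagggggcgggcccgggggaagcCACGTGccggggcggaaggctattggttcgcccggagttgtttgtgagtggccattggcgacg
PDK3, chrX:24465036-24465243, plus strand: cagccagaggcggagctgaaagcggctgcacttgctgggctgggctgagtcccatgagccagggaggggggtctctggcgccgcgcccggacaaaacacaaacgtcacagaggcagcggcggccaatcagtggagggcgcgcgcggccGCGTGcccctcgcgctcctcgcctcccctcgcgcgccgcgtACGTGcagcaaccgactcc
PDK4, chr7:95596517-95596669, minus strand: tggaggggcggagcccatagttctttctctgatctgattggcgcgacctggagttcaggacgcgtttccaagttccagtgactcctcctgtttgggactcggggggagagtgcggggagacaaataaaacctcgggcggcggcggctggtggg
PDK1 held ACGTG in 2 places close to its start, PDK2 held it as the palindrome CACGTG, where the motif overlaps itself on both strands, and PDK3 held it once. PDK4 held neither core in its window. Windows of 300 bases, from 250 before to 50 after the start, were matched for 9 of the 10 genes, all but PDP1. ACGTG was found in 5 of the 9 and either core in 8 of the 9. Over 35116 RefSeq windows of the same length, ACGTG was found in 21.4% and either core in 48.4%. The forkhead letters GTAAACA and the estrogen-related receptor letters AAGGTCA were found in none of the 9 windows, against 3.42% and 3.92% of all windows. A match of letters is a description of the sequence only.

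In resistant 786-O, MPC2 and PDHA1, which serve the carrying and oxidation of pyruvate, fell together with the kinases PDK1 and PDK3, while the kinases PDK2 and PDK4 rose. Compared with 786-O, 2 of the 10 genes were called higher (PDK2, PDK4) and 6 lower (MPC2, PDHA1, PDK1, PDK3, PDP2, PC), with 2 not called (MPC1, PDP1). In this comparison 68.5% of all genes tested were called, 35.0% higher and 33.5% lower, so that the number called is close to the background. Their median log2 fold change was −0.34, against 0.03 for all genes. Without replicate 2 of resistant 786-O, 9 of the 10 were called, 7 of them lower. The share of all genes called in that fit was not computed, so this count has no background beside it. Among all genes tested, the 3 libraries of each group did not overlap those of the other for 68.9% in resistant 786-O over 786-O, 78.5% in resistant A498 over A498 and 73.4% in resistant A498 over 786-O, so that lack of overlap at a gene is common here.

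In resistant A498 against A498, PDHA1, PDK1 and PDK3 were called in the opposite direction, whereas PDK2, PDK4, PDP2 and PC were called in the same direction as in resistant 786-O. There, 7 of the 10 were called higher (MPC1, PDHA1, PDK1 to PDK4, PDP1) and 2 lower (PDP2, PC), and MPC2 was not called, where 72.7% of all genes tested were called, 36.3% higher and 36.4% lower. The median of the 10 was 0.80, against 0.00 for all genes. Set against 786-O, the resistant A498 libraries gave 3 of the 10 higher (PDK2, PDK4, PDP1) and 4 lower (MPC2, PDHA1, PDK1, PDK3), where 63.6% of all genes were called, 31.6% higher and 32.1% lower. The median was then −0.01, against 0.00 for all genes. The sign of PDHA1, PDK1 and PDK3 in resistant A498 therefore depended on which parental line was the reference. With library size alone as the scaling, which moved the median of all genes against 786-O from 0.00 to 0.15, the lower levels of MPC2, PDHA1 and PDK3 were no longer called (−0.11, −0.09 and −0.13).

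**Figure D1:**
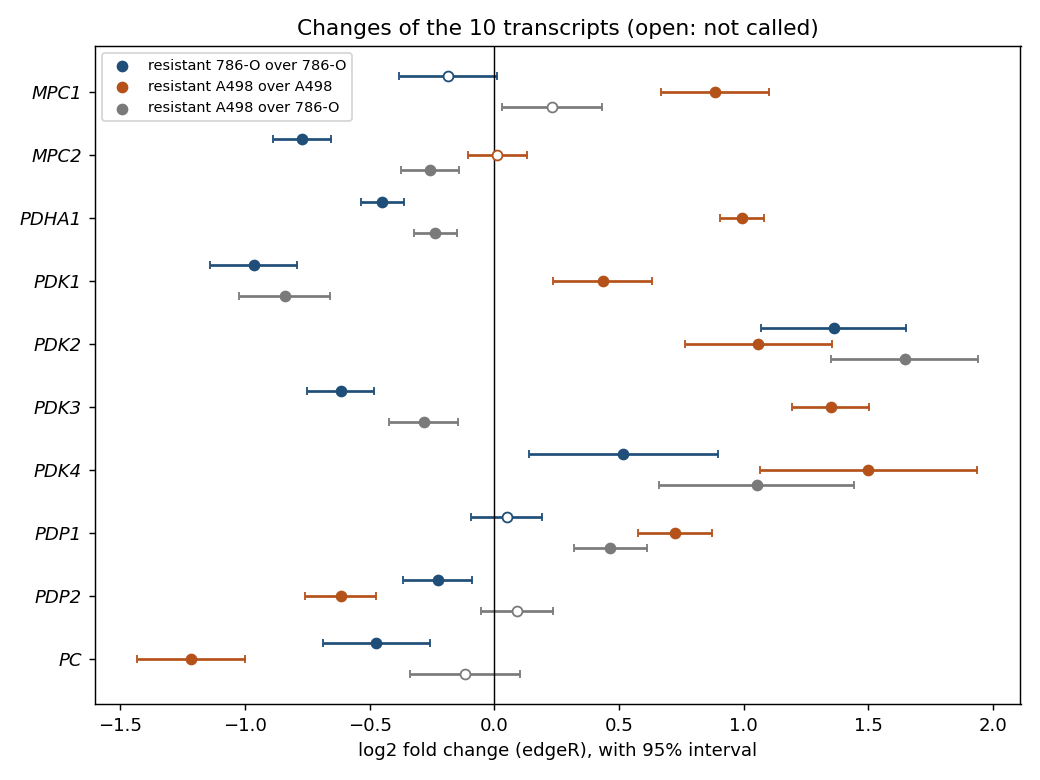
The log2 fold change (x axis, edgeR, with 95% intervals) is plotted for each of the 10 genes in resistant 786-O over 786-O (blue), resistant A498 over A498 (orange) and resistant A498 over 786-O (grey), with open circles for genes not called. PDK2 and PDK4 lie to the right of 0 in each of the 3 comparisons, while PDHA1, PDK1 and PDK3 lie to the left against 786-O and to the right against A498.

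PDK2, a broadly expressed kinase of the family, was higher in both resistant groups by each reference. Its level was 11.7, 11.3 and 12.4 CPM in the 786-O libraries and 33.4, 20.9 and 36.6 in resistant 786-O. It was 18.9, 16.7 and 17.5 CPM in A498 and 36.1, 36.0 and 38.5 in resistant A498. Resistant and parental libraries did not overlap, and the lowest resistant 786-O library, replicate 2, lay closest to the parental levels. PDK2 rose by 1.36 on the log2 scale (SE 0.15), a 2.57-fold difference, in resistant 786-O over 786-O (edgeR adjusted p = 1.1e-06). It rose by 1.06 (SE 0.15) in resistant A498 over A498 (edgeR adjusted p = 1.3e-05) and by 1.65 (SE 0.15) over 786-O (edgeR adjusted p = 1.9e-07). In resistant 786-O the increase was 1.56 without replicate 2. Removal of trends with GC content and length gave a smaller increase of 0.915 in resistant 786-O (edgeR adjusted p = 4.4e-05). In resistant A498 it gave 1.387 over A498 and 1.427 over 786-O (edgeR adjusted p = 5.8e-07 and 5.9e-07).

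PDK4, the isozyme known for induction by fasting and fatty acids, was the least abundant by count. Its 12 libraries held 18 to 105 counts each. The level was 1.24, 1.27 and 1.35 CPM in 786-O and 1.92, 1.31 and 2.30 in resistant 786-O, where replicate 2 overlapped the parental range. It was 1.10, 0.837 and 0.846 CPM in A498 and 2.95, 2.73 and 2.35 in resistant A498, without overlap. The increase in resistant A498 was 1.50 on the log2 scale (SE 0.22) over A498 (edgeR adjusted p = 2.1e-05) and 1.05 (SE 0.20) over 786-O (edgeR adjusted p = 0.0003). In resistant 786-O the increase of 0.52 (SE 0.19) was close to the threshold (edgeR adjusted p = 0.028). Its call was lost when counts were thinned to the smallest library (0.23, adjusted p = 0.51), when the 786-O groups were fitted alone (0.55, adjusted p = 0.053), and without any single 786-O library or without replicate 1 or 3 of resistant 786-O (0.35 to 0.55, adjusted p = 0.05 to 0.13). Without replicate 2 of resistant 786-O it was 0.70 (adjusted p = 0.00035).

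PDK1, the kinase best known as a hypoxia-inducible target, was highest in 786-O. Its level was 17.8, 18.1 and 18.4 CPM there and 8.56, 10.5 and 8.70 in resistant 786-O. PDK1 fell to 0.512 of its parental level in resistant 786-O, a log2 fold change of −0.97 (SE 0.09, edgeR adjusted p = 1.9e-07). The A498 libraries held 7.09, 8.51 and 6.95 CPM and the resistant A498 libraries 9.92, 10.0 and 10.4, which lay above A498 and far below 786-O. The log2 fold change of resistant A498 was 0.43 (SE 0.10) over A498 (edgeR adjusted p = 0.0013) and −0.84 (SE 0.09) over 786-O (edgeR adjusted p = 1.5e-06). The call against A498 was lost after removal of trends with GC content and gene length (0.21, adjusted p = 0.11). PDK1 in resistant A498 differed from resistant 786-O by 0.13, with a 95% interval of −0.06 to 0.31, which was called at 0.23 without replicate 2 of resistant 786-O (edgeR adjusted p = 0.023).

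PDK3 has the highest intrinsic activity of the 4 kinases and is poorly inhibited by pyruvate. Its level was 23.4, 25.2 and 26.1 CPM in 786-O, 15.4, 16.4 and 16.9 in resistant 786-O, 8.51, 7.39 and 8.09 in A498 and 19.6, 21.7 and 20.2 in resistant A498. The groups did not overlap, and their order was 786-O, resistant A498, resistant 786-O and A498. PDK3 fell by 0.62 on the log2 scale (SE 0.07) in resistant 786-O (edgeR adjusted p = 1.5e-06). In resistant A498 it was 2.55-fold higher than in A498, at 1.35 (SE 0.08, edgeR adjusted p = 6.2e-10), and 0.28 (SE 0.07) lower than in 786-O (edgeR adjusted p = 0.0027).

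Genes can be compared with each other per kilobase of exon. On that measure, counts assigned to PDK2 made up most of the kinase sum outside 786-O. These counts include reads that cannot be told apart from those of SAMD14, a gene on the opposite strand. The summed level of PDK1 to PDK4 was 5.08 ± 0.19 CPM per kilobase in 786-O (mean ± SD, n = 3), 7.50 ± 1.55 in resistant 786-O, 4.40 ± 0.22 in A498 and 9.19 ± 0.20 in resistant A498. In 786-O, PDK2 contributed 42.4% ± 1.1 (SD, n = 3), PDK3 28.1% ± 0.9 and PDK1 24.0% ± 0.5. In resistant 786-O the PDK2 share was 73.1% ± 5.8, with single libraries between 66.3% and 76.5%, and PDK1 and PDK3 were down to 8.75% ± 3.11 and 12.8% ± 3.1. A498 and resistant A498 had PDK2 shares of 73.4% ± 1.1 and 73.4% ± 1.3, while the summed level differed between them. PDK4 contributed 4.63% to 6.42% in the group means. With the longest transcript in place of the union of exons, the PDK2 share was 49.3% in 786-O and 77.9% to 78.7% in the other groups. SAMD14 had a count 60.3% of that of PDK2 in A498 and 45.8% in resistant A498. No share was recomputed with its counts subtracted. Without those counts each PDK2 share would be lower, and PDK2 may not make up most of the sum in every library outside 786-O. The equal PDK2 shares of A498 and resistant A498 hold only with those counts included. These shares are descriptions and were not tested.

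**Figure D2:**
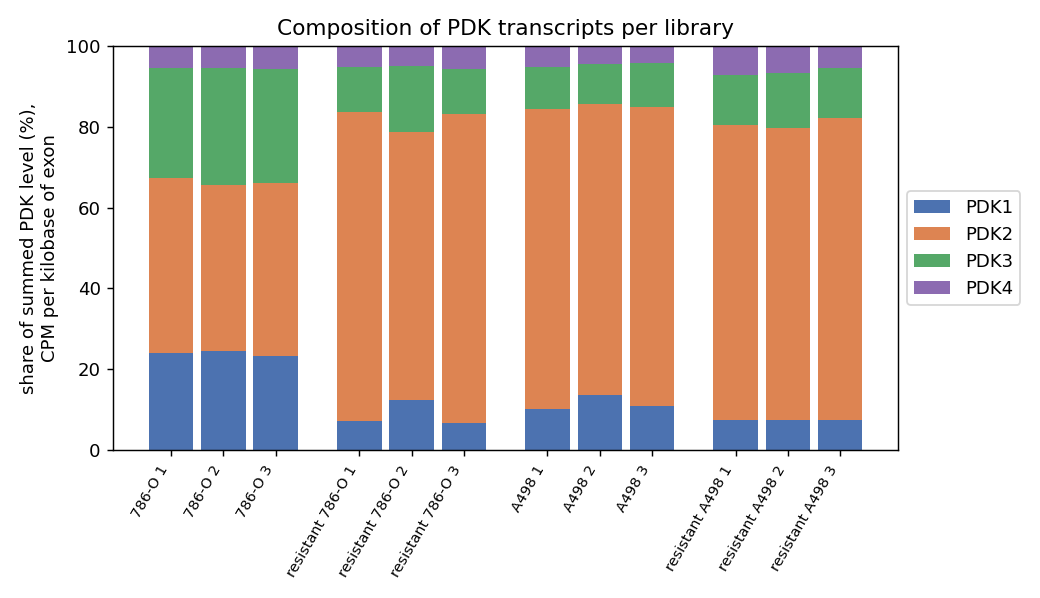
Each bar is 1 of the 12 libraries, stacked by the share (%) of PDK1, PDK2, PDK3 and PDK4 in their summed CPM per kilobase of exon. PDK2 takes 41.2% to 43.3% in the 786-O libraries and 66.3% to 76.5% in the other 9 libraries, where the PDK1 and PDK3 bands are narrower. The PDK2 band includes reads that cannot be told apart from those of SAMD14.

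Several of these genes share exon bases with a gene on the opposite strand, and the counts did not separate such pairs. The library kit marks strand and the counting was described with a strand setting. Even so, 217 annotated genes that lie at least 90% inside opposite-strand exons of an abundant gene had a median count density 1.58 times that of the abundant gene, between 1.38 and 1.65 in each library, and for 84.8% of them the ratio was above 0.1. Reads of a gene and of its opposite-strand partner therefore cannot be told apart. SAMD14 shares 38.6% of the exon bases of PDK2, and its count was 45.8% to 60.3% of that of PDK2 in the 4 groups. SAMD14 was also higher in resistant cells, by 1.48 (SE 0.15) in resistant 786-O over 786-O and 0.66 (SE 0.15) in resistant A498 over A498 (edgeR adjusted p = 3.4e-07 and 0.00091). When SAMD14 counts were subtracted from PDK2, an alternative chosen after seeing the data, PDK2 was called at 1.23, 1.51 and 1.76 in resistant 786-O over 786-O, resistant A498 over A498 and resistant A498 over 786-O. The lower level of PDK2 in 786-O than in A498, −0.59 on the log2 scale, was no longer called (−0.25, adjusted p = 0.24). It was also lost after removal of trends with GC content and length (−0.04, adjusted p = 0.82).

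PDK1-AS1, a non-coding gene that shares 3.0% of the exon bases of PDK1, held 12.3% of the PDK1 count in 786-O, 39.5% in resistant 786-O, 23.7% in A498 and 28.4% in resistant A498. It rose by 0.70 in resistant 786-O over 786-O and also by 0.70 in resistant A498 over A498 (edgeR adjusted p = 0.00019 and 0.00078). With its counts subtracted, PDK1 was −1.50 in resistant 786-O and −1.13 in resistant A498 over 786-O, and the increase over A498 was no longer called (0.34, adjusted p = 0.058).

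**Figure D3:**
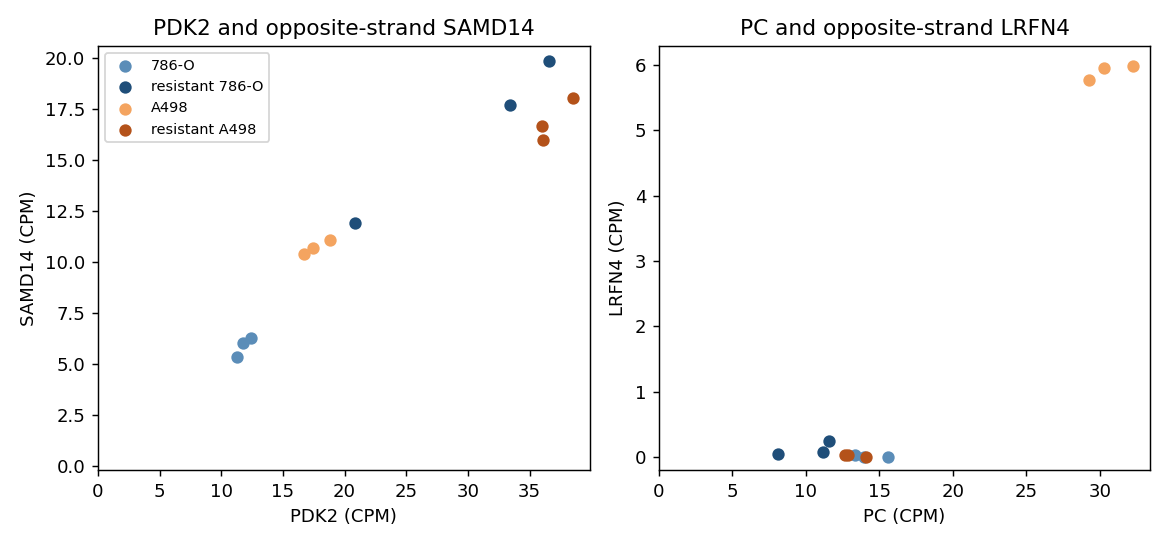
CPM of PDK2 against SAMD14 (left) and of PC against LRFN4 (right) in the 12 libraries, coloured by group. SAMD14 runs from 5.35 to 19.9 CPM and is higher where PDK2 is higher, while LRFN4 is near 5.8 to 6.0 CPM in the A498 libraries and at most 0.24 CPM in the other 9.

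The mitochondrial pyruvate carrier needs both of its subunits, and they moved differently. MPC2 was 82.2, 78.4 and 75.3 CPM in 786-O and 48.9, 42.4 and 46.7 in resistant 786-O, so that the groups were well separated. It fell by 0.77 on the log2 scale (SE 0.06, edgeR adjusted p = 2.3e-08). In A498 it was 65.4, 68.5 and 61.6 CPM and in resistant A498 66.5, 64.5 and 65.9, which overlap. On the log2 scale resistant A498 differed from A498 by 0.01 with a 95% interval of −0.11 to 0.13, and over 786-O it was −0.26 (SE 0.06, edgeR adjusted p = 0.0013). DCAF6, a ubiquitin ligase receptor subunit on the opposite strand, shares 21.8% of the exon bases of MPC2, held 143% to 158% of its counts and differed by −0.69 in resistant 786-O over 786-O. The part of DCAF6 in the MPC2 result was not tested, since subtraction would leave no counts.

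MPC1 was the scarcer subunit. Its level was 10.7, 9.52 and 10.1 CPM in 786-O, 8.70, 9.64 and 8.33 in resistant 786-O, 6.08, 5.49 and 7.65 in A498 and 11.9, 12.1 and 11.7 in resistant A498. In resistant 786-O the libraries overlapped those of 786-O, with a log2 fold change of −0.19 and a 95% interval of −0.38 to 0.01, and the difference was called at −0.25 without replicate 2 (edgeR adjusted p = 0.011) and at −0.26 after removal of trends with GC content and length (edgeR adjusted p = 0.029). MPC1 rose by 0.88 (SE 0.11) in resistant A498 over A498 (edgeR adjusted p = 3.4e-06). Against 786-O the difference of 0.23 was not called (edgeR adjusted p = 0.063), although the libraries did not overlap. It was called with DESeq2's Wald test or size factors (0.27 in both, adjusted p = 0.034 and 0.036), with library size alone (0.38, adjusted p = 0.0044), with 10 counts required in every library (0.28, adjusted p = 0.028), with only the groups compared (0.27, adjusted p = 0.0011), and without any single library of resistant 786-O or replicate 3 of A498 (0.23 to 0.26, adjusted p = 0.015 to 0.041). Per kilobase, MPC2 exceeded MPC1 by 4.55 ± 0.24 times in 786-O, 3.04 ± 0.41 in resistant 786-O, 6.09 ± 1.31 in A498 and 3.23 ± 0.09 in resistant A498 (SD, n = 3). Counts of the related MPC1L, a testis-expressed copy, did not exceed 1 in any library.

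**Figure D4:**
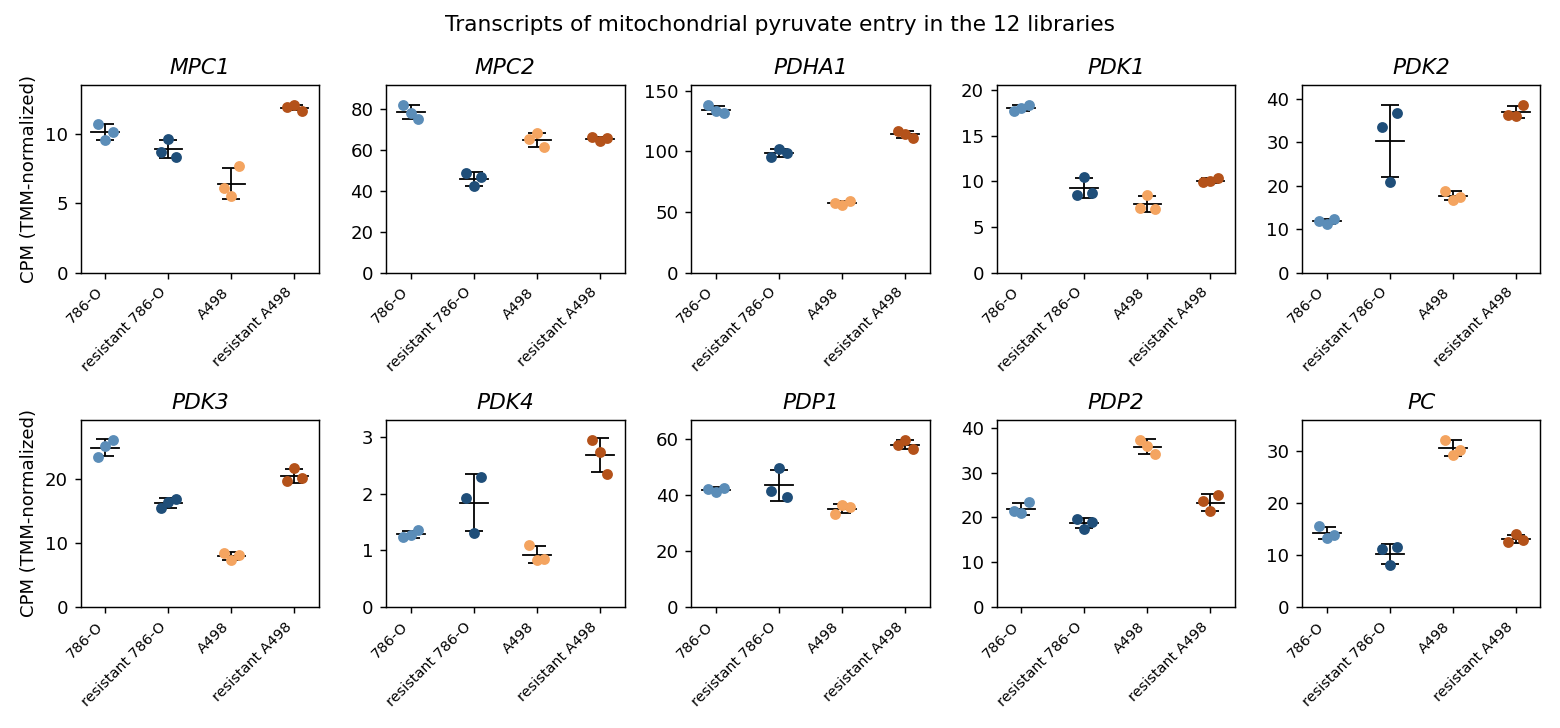
CPM (y axis, from 0, with its own scale in each panel) of the 10 genes in the 12 libraries, with points for libraries, a bar for the group mean and whiskers for the SD (n = 3). PDHA1 is at 132 to 138 CPM in 786-O and at 55.9 to 58.8 in A498. By group means, resistant A498 lies nearer to 786-O than to A498 for MPC1, PDHA1, PDK3, PDK4, PDP1, PDP2 and PC. It lies nearer to A498 for MPC2, PDK1 and PDK2.

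PDHA1 encodes the catalytic E1 alpha subunit that carries the phosphorylation sites, and with MPC2 it was the most abundant of the 10 per kilobase, at 27.1 and 29.8 CPM per kilobase in 786-O. Its level was 138, 133 and 132 CPM in 786-O and 95.2, 102 and 98.4 in resistant 786-O, a decrease of 0.45 on the log2 scale (SE 0.04, edgeR adjusted p = 3.2e-07). It was 57.0, 55.9 and 58.8 CPM in A498 and 116, 115 and 111 in resistant A498. The resistant A498 level was 1.99 times that of A498, a log2 fold change of 0.99 (SE 0.05, edgeR adjusted p = 3.5e-11). It was 0.848 times that of 786-O, a log2 fold change of −0.24 (SE 0.04, edgeR adjusted p = 0.00024). The processed copy PDHA1P1 had no counts, and MAP3K15, a kinase gene on the opposite strand that shares 19.3% of the exon bases, held 6.33% to 8.27% of the PDHA1 count.

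The rest of the pyruvate dehydrogenase complex followed PDHA1 in part. Of 14 tested genes for its other subunits and cofactors, 4 were higher and 8 lower in resistant 786-O over 786-O (median −0.36), 6 higher and 6 lower in resistant A498 over A498 (median 0.02), and 3 higher and 6 lower in resistant A498 over 786-O (median −0.23). Of all genes tested, 68.5%, 72.7% and 63.6% were called in these comparisons. PDHB, the partner of PDHA1 in the E1 enzyme, was −0.12 in resistant 786-O, which was not called, and rose by 0.83 in resistant A498 over A498 (edgeR adjusted p = 1.7e-09). DLAT, the E2 core, fell by 0.45 in resistant 786-O and rose by 0.79 in resistant A498 over A498 (edgeR adjusted p = 7.6e-06 and 1.7e-08). PDHX, which tethers E3 to the core, fell by 0.48 and 0.40, and DLD, the E3 enzyme itself, by 0.59 and 0.40 in the same comparisons. Against 786-O, PDHB, DLAT and PDHX in resistant A498 gave 0.05, 0.10 and 0.05 and were not called, and DLD fell by 0.40. LIAS, which makes lipoate, fell by 0.52 in resistant 786-O. Of the thiamine transporters, SLC19A2 in resistant A498 rose by 0.83 over A498 but was 0.25 lower than in 786-O (edgeR adjusted p = 0.033). SLC19A3 held 132 to 238 counts in A498 and 0 in the resistant A498 libraries, at least 51.4-fold lower at a floor of 3 counts per library, and it held at most 1 count in 786-O.

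Both phosphatases restore activity of the complex, PDP1 under control by calcium and PDP2 under control by insulin. PDP1 was 42.1, 41.0 and 42.6 CPM in 786-O and 41.3, 49.7 and 39.2 in resistant 786-O, with a log2 fold change of 0.05 and a 95% interval of −0.09 to 0.19. Replicate 2 of resistant 786-O was the high library, and without it the value was −0.06. With library size alone it was called at 0.19 (edgeR adjusted p = 0.027). In resistant A498, PDP1 was 57.7, 59.6 and 56.3 CPM against 33.2, 36.4 and 35.7 in A498. It rose by 0.72 (SE 0.08) over A498 (edgeR adjusted p = 5.1e-07) and by 0.47 (SE 0.07) over 786-O (edgeR adjusted p = 5.8e-05).

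PDP2 moved against PDP1 in resistant A498. Its level was 37.3, 36.0 and 34.1 CPM in A498 and 23.6, 21.3 and 25.0 in resistant A498, a decrease of 0.62 on the log2 scale (SE 0.07, edgeR adjusted p = 2e-06). The 786-O libraries held 21.4, 21.0 and 23.4 CPM, within the resistant A498 range or close to it, and the log2 fold change over 786-O was 0.09 with a 95% interval of −0.05 to 0.23. It was called at 0.24 with library size alone and at 0.13 with only the groups compared (edgeR adjusted p = 0.011 and 0.047), and was −0.14 after removal of trends with GC content and length. In resistant 786-O PDP2 was 19.8, 17.5 and 18.9 CPM, a small decrease of 0.23 (SE 0.07, edgeR adjusted p = 0.011). That call was lost with library size alone as the scaling (−0.08), with thinning (−0.19), with the 786-O groups fitted alone (−0.19) and without replicate 3 of 786-O (−0.18). Library size alone moved the median of all genes from 0.03 to 0.18 in this comparison. Per kilobase, PDP2 was 41.1% ± 2.1 of the phosphatase sum in A498 and 26.3% ± 0.8, 22.9% ± 3.1 and 21.6% ± 1.8 in 786-O, resistant 786-O and resistant A498 (SD, n = 3).

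The ratio of summed kinase to summed phosphatase transcripts per kilobase was 0.501 ± 0.010 in 786-O and 0.761 ± 0.214 in resistant 786-O, with single resistant 786-O libraries at 0.817, 0.524 and 0.941. It was 0.415 ± 0.028 in A498 and 0.698 ± 0.018 in resistant A498 (SD, n = 3). By these counts, each resistant library lay above the libraries of its parental group, with replicate 2 of resistant 786-O only just so. The kinase sums include PDK2 counts that cannot be told apart from those of SAMD14. No ratio was recomputed with SAMD14 subtracted. In replicate 2 of resistant 786-O, SAMD14 stood at 11.9 CPM beside PDK2 at 20.9 CPM, and the place of that library above 786-O rests on those counts. The ratio describes transcripts, not enzyme activity, and was not tested.

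PC, which replenishes oxaloacetate from pyruvate, set A498 apart from the other groups. Its level was 32.3, 29.3 and 30.3 CPM in A498 against 12.6, 14.1 and 12.9 in resistant A498, and 15.6, 13.4 and 14.0 in 786-O against 11.2, 8.13 and 11.6 in resistant 786-O. PC fell by 1.22 on the log2 scale (SE 0.11) in resistant A498 over A498 (edgeR adjusted p = 1.1e-07), to 0.43 of the A498 level. Over 786-O its log2 fold change was −0.12 with a 95% interval of −0.34 to 0.10, and it was called at −0.37 after removal of trends with GC content and length (edgeR adjusted p = 0.0062). In resistant 786-O it fell by 0.47 (SE 0.11, edgeR adjusted p = 0.0014), with replicate 2 the lowest library, and by 0.33 without that library. PC and PDK2 are the members richest in GC, with 58.6% and 59.7% of the bases of their longest transcripts. Removal of trends with GC content and length gave −0.92 for PC in resistant 786-O and −0.91 in resistant A498 over A498. LRFN4, a synaptic adhesion gene within PC on the opposite strand, had 124 to 207 counts in A498 and at most 11 elsewhere. With its counts subtracted, an alternative chosen after seeing the data, PC in resistant A498 over A498 was also −0.91. The level of PDHA1 per kilobase was 2.76 ± 0.13 times that of PC in A498, and 13.9 ± 0.8, 14.5 ± 3.4 and 12.8 ± 0.8 times in 786-O, resistant 786-O and resistant A498 (SD, n = 3).

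Of the other genes of the pathway, 60 were listed and 57 tested. PDHA2, MPC1L and PCK1 were not among those tested. In resistant 786-O over 786-O, 20 of the 57 were higher and 27 lower (median −0.17), in resistant A498 over A498 19 were higher and 24 lower (median −0.11), and in resistant A498 over 786-O 22 were higher and 26 lower (median −0.15), beside medians of 0.03, 0.00 and 0.00 for all genes. Of all genes tested, 68.5%, 72.7% and 63.6% were called in these comparisons, which is also the background for each list below. The shares called are again close to or above the background, and the medians lie slightly below that of all genes in each comparison.

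Among 13 enzymes that make or use pyruvate, 5 were higher and 7 lower in resistant 786-O over 786-O, 2 higher and 6 lower in resistant A498 over A498, and 6 higher and 7 lower in resistant A498 over 786-O. LDHB, the lactate dehydrogenase subunit that favours pyruvate formation, fell from 24.2 ± 0.8 CPM in 786-O to 4.64 ± 0.90 in resistant 786-O (SD, n = 3), a log2 fold change of −2.38 (edgeR adjusted p = 6.4e-10), and LDHA, which favours lactate, fell by 0.76. PCK2, the mitochondrial enzyme that makes phosphoenolpyruvate from oxaloacetate, rose in both resistant groups, by 0.84 in resistant 786-O, by 0.97 in resistant A498 over A498 and by 0.84 over 786-O (edgeR adjusted p = 3.1e-10, 3.7e-11 and 4e-10). The malic enzymes, which make pyruvate from malate, moved oppositely in resistant A498 over A498, with ME2 higher by 0.81 and ME1 lower by 0.75, and both were lower than in 786-O, by 0.39 and 0.24. Of 7 carriers and pores, 2 were higher and 4 lower in resistant 786-O, and 1 higher and 4 lower in resistant A498 over A498. In resistant A498 over 786-O, 1 was higher and 5 lower. VDAC3, an outer membrane channel, fell by 0.72 in resistant 786-O, and in resistant A498 by 1.34 over A498 and 0.83 over 786-O. In resistant 786-O the dicarboxylate carrier SLC25A10 and VDAC1 fell by 0.85 and 0.51. In resistant A498 over A498 the oxoglutarate carrier SLC25A11 fell by 1.00, and SLC16A7, a plasma membrane carrier with high affinity for pyruvate, rose by 0.72. Over 786-O these changes were −0.29 and 0.65.

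The other oxo-acid dehydrogenases of the matrix have a parallel layout of kinase, phosphatase and E1 to E3 enzymes. Of 7 such genes, 2 were higher and 3 lower in resistant 786-O over 786-O, 4 higher and 2 lower in resistant A498 over A498, and 3 higher and 3 lower in resistant A498 over 786-O. BCKDK, which inactivates the branched-chain oxo-acid dehydrogenase, fell by 1.10 in resistant A498 over A498 and by 0.82 over 786-O, and PPM1K, the opposing phosphatase, rose by 1.53 and 0.90. DBT, the E2 enzyme of the same complex, rose by 0.63 over A498 and by 0.45 over 786-O. In resistant 786-O, OGDH, the E1 enzyme for 2-oxoglutarate, rose by 0.74, while DLST, its E2 enzyme, and BCKDHB fell by 0.32 and 0.53.

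**Figure D5:**
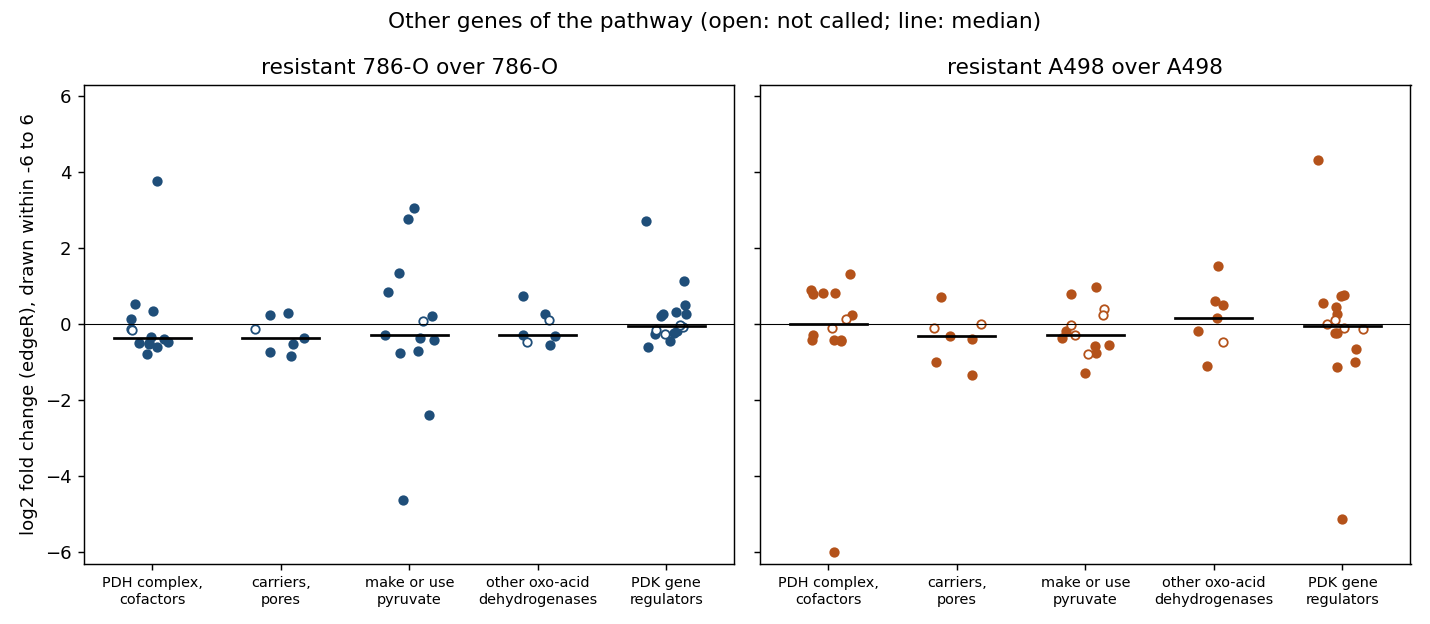
Log2 fold changes (y axis, edgeR) of the tested genes of 5 pathway lists in resistant 786-O over 786-O (left) and resistant A498 over A498 (right), with open circles for genes not called and a line at the median of each list. SLC19A3 in resistant A498 is drawn at the lower limit of −6, and the medians of the lists lie between −0.36 and 0.17.

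Of 16 regulators known for control of PDK genes, 7 were higher and 5 lower in resistant 786-O over 786-O (median −0.05), 6 higher and 6 lower in resistant A498 over A498 (median −0.05), and 9 higher and 5 lower in resistant A498 over 786-O (median 0.26). The shares of all genes called were 68.5%, 72.7% and 63.6%. PPARGC1A, the PGC-1α coactivator that is known to raise PDK4, was 1.10 ± 0.24 CPM in 786-O, 7.41 ± 0.25 in resistant 786-O, 0.732 ± 0.196 in A498 and 15.0 ± 0.6 in resistant A498 (SD, n = 3). It rose by 2.73 in resistant 786-O, by 4.31 in resistant A498 over A498 and by 3.75 over 786-O (edgeR adjusted p = 2.9e-10, 2.5e-12 and 9.4e-12). Its relative PPARGC1B rose by 1.13 in resistant 786-O. In resistant A498, PPARGC1B was −0.11 over A498, not called, and 0.98 over 786-O, called. FOXO1, a forkhead factor known to act on the PDK4 gene, fell by 0.59 in resistant 786-O. In resistant A498, FOXO1 fell by 1.13 over A498 and by 0.695 over 786-O. HIF1A, which encodes the hypoxia-inducible factor known to act on PDK1, was 305 ± 11 CPM in A498 and only 10.8 ± 0.6, 9.19 ± 0.61 and 8.79 ± 0.34 in 786-O, resistant 786-O and resistant A498. PDK1 was at its lowest level in A498, and a link between HIF1A and PDK1 was not tested. EPAS1, which encodes HIF-2α, differed little in level between the parental lines, at 161 ± 5 CPM in 786-O and 160 ± 3 in A498, and rose by 0.32 in resistant 786-O and by 0.57 in resistant A498 over A498 (edgeR adjusted p = 0.0039 and 2.9e-05). Over 786-O, EPAS1 in resistant A498 rose by 0.55 (edgeR adjusted p = 5e-05).

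The parental lines themselves differed in these genes. In 786-O over A498, 6 of the 10 were higher (MPC1, MPC2, PDHA1, PDK1, PDK3, PDP1) and 3 lower (PDK2, PDP2, PC), where 74.2% of all genes were called, 38.2% higher and 36.1% lower. The log2 differences were 1.63 for PDK3, 1.28 for PDK1, 1.23 for PDHA1 and −1.10 for PC, the last at −0.54 after removal of trends with GC content and length. The PDP1 difference of 0.26 was no longer called after that removal or after thinning (adjusted p = 0.052 and 0.053). In resistant A498 over resistant 786-O, 8 of the 10 were higher and none lower, where 46.1% of all genes were called, 23.0% higher and 23.0% lower. These differences ran from 0.21 for PDHA1 to 0.54 for PDK4, and for PDK1 and PDK2, not called, they were 0.13 and 0.28. The PDK4 difference was no longer called after removal of trends with GC content and length (0.33, adjusted p = 0.2), with thinning (0.61, adjusted p = 0.077), with only the groups compared, or without replicate 2 of resistant 786-O or replicate 1 or 2 of resistant A498 (0.35 to 0.53, adjusted p = 0.069 to 0.12). PDK3 was lost after the same removal (0.12, adjusted p = 0.21), whereas PDK2 was then called at 0.51 (adjusted p = 0.0081), and also at 0.54 with SAMD14 subtracted and at 0.45 without replicate 3 of resistant 786-O (adjusted p = 0.014 and 0.016). PC was lost with only the groups compared and without replicate 2 of resistant A498 (0.36 and 0.32, adjusted p = 0.064 and 0.068). When counts were thinned to the smallest library, 5 of the 10 were called, and the share of all genes called was not computed for that fit. Fibroblast markers were also higher in resistant A498, with a summed level of 3 markers of 21.0 to 22.9 CPM against 7.19 to 8.45 in resistant 786-O, 4.68 to 4.84 in 786-O and 0.232 to 0.434 in A498, and PDGFRB at a mean of 5.49 CPM. Lumican made up most of these sums outside A498, decorin had at most 4 counts in any library, and the part of these markers in the results was not tested.

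The response to selection itself was compared between the cell lines as labelled, by the difference between the change of resistant A498 over A498 and that of resistant 786-O over 786-O. It was called for 9 of the 10 genes, 7 more positive in resistant A498 and 2 more negative, where 68.3% of all genes were called, 33.9% more positive and 34.4% more negative. PDK3 and PDHA1 gave values of 1.97 (SE 0.11) and 1.44 (SE 0.06), and PC gave −0.74 (SE 0.16), with edgeR adjusted p of 3.5e-10, 3.7e-11 and 0.00062. For PDK2 the difference was −0.30 with a 95% interval of −0.72 to 0.11, and it was called at −0.50 without replicate 2 of resistant 786-O. With trends of GC content and length removed, the PDK2 difference was 0.47 (edgeR adjusted p = 0.051). It was called with this opposite sign, at 0.50, when blocking on replicate number was added (edgeR adjusted p = 0.022). Removal of trends with GC content and length left the PC value at 0.01 (adjusted p = 0.97) and the PDK4 value, 0.98, at 0.65 (adjusted p = 0.071). The comparison takes A498 as the parent of the resistant A498 libraries, which resembled 786-O more closely.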

How the data were processed

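The 12 mRNA libraries, 3 of each parental line and 3 of its sunitinib-resistant derivative, were analysed. The authors deposited raw counts per gene, without normalization. Per the paper's methods and the submitters' processing notes, reads of stranded mRNA libraries were demultiplexed with bcl2fastq 2.19.0, trimmed with Trimmomatic 0.36.6, aligned to GRCh38 with HISAT2 2.1.0 and counted over GENCODE exons with featureCounts 1.6.3.

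Tests were run with edgeR 4.0.16 under R 4.3.3. Genes were filtered with filterByExpr, which left 19929, scaled by TMM and fitted in 1 quasi-likelihood model of 12 libraries with 4 group means. A gene was called at a Benjamini-Hochberg adjusted p under 0.05 across these genes, and log2 fold changes used a prior count of 0.125. Groups came from the labels. Of the other pathway genes, the 3 per list with the largest called change and at least 5 CPM in the higher group were named, beside the complex subunits, HIF1A, EPAS1 and PPARGC1A. Members and lists were chosen with earlier results of these data known. Exon lengths and overlaps were taken from a later GENCODE release of the same assembly. Depth was 20042519 to 47972092 counts per library, and precision is given as the SD of 3 libraries or as the SE.

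Alternatives were DESeq2 1.42.0 (size factors, and its Wald test), library size alone, 2 other filters, a prior count of 2, a fit of only the groups compared, blocking on replicate number, removal of trends with GC content and length, thinning, each library left out, the longest transcript as length and the study's own test of unnormalized counts. Subtraction of the opposite-strand gene was added after seeing the data. The code was tested on simulated data. Figures were drawn with matplotlib 3.10.9.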

Additional observations from a re-analysis of the deposited data

Results flagged for a closer look

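The change of resistant A498 over A498 and that of resistant 786-O over 786-O differed for 9 of the 10 genes by a test of the difference itself (edgeR quasi-likelihood, Benjamini-Hochberg adjusted). The difference, positive where resistant A498 changed upward relative to resistant 786-O, was 1.07 for MPC1, 0.79 for MPC2, 1.44 for PDHA1, 1.40 for PDK1, 1.97 for PDK3, 0.98 for PDK4, 0.67 for PDP1, −0.39 for PDP2 and −0.74 for PC. The libraries labelled resistant A498 resembled 786-O more than A498. With 3 libraries a group, no single library was tested as an outlier.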

How the results depend on the processing

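Across the alternatives, 1335 log2 fold changes of members kept their direction and side of the threshold, 50 were no longer called, 28 became called and 31 changed sign. The study's own test of unnormalized counts called 2 members in resistant 786-O over 786-O, and 24 and 13 other pathway genes in resistant 786-O over 786-O and resistant A498 over A498. That test scales nothing, and resistant A498 libraries are shallower, so it gave lower levels in resistant A498. In resistant A498 over resistant 786-O the signs turned for MPC1 (−0.50), MPC2 (−0.41), PDHA1 (−0.70), PDK1 (−0.79), PDK2 (−0.64), PDK3 (−0.59), PDK4 (−0.39), PDP1 (−0.50), PDP2 (−0.60) and PC (−0.57). Over 786-O they turned for MPC1 (−0.50), PDP1 (−0.27) and PDP2 (−0.64), and over A498 for MPC2 (−0.17). MPC2 in resistant A498 over A498, near 0, was also −0.01 with DESeq2's size factors or Wald test (−0.008 in both), −0.01 with 10 counts required in every library (−0.013) and −0.039 with GC and length trends removed. Removal of those trends also gave −0.14 for PDP2 in resistant A498 over 786-O and −0.13 for PDK1 in resistant A498 over resistant 786-O. For the difference between the changes it gave 0.47 for PDK2 and 0.008 for PC, and subtraction of SAMD14, chosen after seeing the data, gave 0.29 for PDK2. PC in resistant A498 over 786-O was 0.034 with library size alone. Thinning left 5 members called in resistant A498 over resistant 786-O. The cause of these changes was not tested where no construction is named.

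With the longest transcript as length, PDK1 shares were 18.1% in 786-O, 8.04% in A498 and 5.11% in resistant A498, PDK2 shares 49.3%, 78.7% and 78.1%, PDK3 shares 9.42% in A498 and 11.5% in resistant A498, and PDK4 shares 5.02%, 4.43%, 3.85% and 5.3% in 786-O, resistant 786-O, A498 and resistant A498.

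Leaving out each library in turn gave −0.061 to 0.14 for PDP1 in resistant 786-O over 786-O and −0.029 to 0.058 for MPC2 in resistant A498 over A498, the only members whose sign turned. Between 6 and 9 members were then called in resistant 786-O over 786-O, 9 in resistant A498 over A498 and 7 to 8 in resistant A498 over 786-O. The share of all genes called was not computed for these fits or for the other alternatives.

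Replicate numbers did not pair the libraries. Deviations of same-numbered libraries correlated at −0.18 to 0.20, and not every library correlated best with its own number. With the replicate number as a block, 8, 9 and 7 members were called in the same 3 comparisons, as without it. The block together with removal of GC and length trends gave −0.039 for MPC2 in resistant A498 over A498, −0.14 for PDP2 in resistant A498 over 786-O, −0.12 for PDK1 in resistant A498 over resistant 786-O, and 0.50 for PDK2 and 0.015 for PC in the difference between the changes. That PDK2 value was called (edgeR adjusted p = 0.022).

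Depth limited PDK4, with 18 to 105 counts per library.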
